A study of Zea mays with 27 samples.

Results

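The 6 genes described here encode nuclear subunits of the photosystems of maize and were represented by 7 cDNA probes. They were taken by gene identifier from the probes that name a single gene, of which there were 1607 for 532 genes, among 18303 probes with values. Photosystem I was represented by psah1 (LOC541685), psan1 (LOC542605) and psad1 (LOC541791), with 1 probe each. Photosystem II was represented by psbs1 (LOC542126), with 2 probes, and by Lhcb5-2 (LOC542320) and lhcb5 (LOC542716, also Lhcb5-1), with 1 probe each. The selection rule used gene names and no measured value, though it was set with earlier results of these data known.

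The RNA came from above-ground tissue of seedlings aged 14 days, of the F1 hybrid made with Mo17 as the female parent and B73 as the male, and of the inbred lines B73 and Mo17. For each genotype and replication 6 seedlings were pooled. Of 10 replications grown in randomized blocks 9 were kept, and in each of these the 3 genotypes were hybridised against one another in a loop of 3 two-colour arrays, which gives 27 arrays, called S1 to S27. A genotype is given for a single channel, F1 for Cy3 on S1, so the arrays were left without groups and nothing below compares F1, B73 and Mo17.

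In leaves, photosystem II takes electrons from water and photosystem I passes them to ferredoxin, and both are built from chloroplast-encoded cores and nuclear-encoded subunits. The products of psad1, psah1 and psan1 lie at the edge of photosystem I: PsaD forms part of the ferredoxin docking site, PsaH takes part in docking of mobile light-harvesting complexes, and PsaN lies on the lumen side, where plastocyanin delivers electrons. PsbS, the product of psbs1, is required for rapid dissipation of excess light energy, and Lhcb5 proteins form the minor antenna CP26 of photosystem II. In maize, the bundle sheath is known to hold less photosystem II than the mesophyll. Such tissue differences could not be followed here, because a ratio from whole shoots cannot tell fewer cells of a type from less RNA per cell.

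Each value below is a log2 ratio of the channels of an array minus the median of all probes on that array. A value of 1 is a ratio 2-fold above the array's median ratio. The numerator of the ratio is unknown, so the sign says only above or below the median and not which genotype was higher. A ratio also holds no level, so neither expression in the tissue nor the order of the 6 genes by abundance could be checked. Array medians ran from -0.23 (S20) to 0.28 (S15) before centring, and the interquartile range of an array's ratios ran from 0.40 (S9) to 1.57 (S19). On S1 to S15 at least 2.47% of probes held a single repeated value, against at most 0.475% on S16 to S27. None of the 189 member values was such a repeated value, but the sets were also examined apart.

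The values of psah1 ran from -1.20 (S13) to 1.45 (S14), with a median of 0.34. It lay above the array median on 14 arrays and below on 13, and was at least 2-fold away on 3, namely S13, S14 and S26, where it stood at 1.42. psan1 ran from -0.99 (S13) to 1.09 (S15), with a median of -0.04. psad1 ran from -0.85 (S13) to 0.88 (S15), with a median of 0.05, and reached 2-fold on no array. The 3 genes shared their lowest array, S13, and psan1 and psad1 also shared their highest.

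psbs1 probe A, the gene's first probe in table order, ran from -1.57 (S21) to 0.64 (S2), with a median of -0.07. psbs1 probe B ran from -2.62 (S1) to 1.06 (S19), with a median of -0.24, and lay below the array median on 20 arrays. Its other value below -2 was -2.24 on S15. The other probe of the gene did not share these values: on S1, S15 and S19 probe A stood at -0.12, 0.44 and -0.97. Lhcb5-2 ran from -1.46 (S19) to 0.83 (S23), with a median of -0.10. lhcb5 ran from -1.98 (S11) to 0.96 (S13), with a median of -0.23, and was 2-fold away from the array median only on S11.

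**Figure D1:**
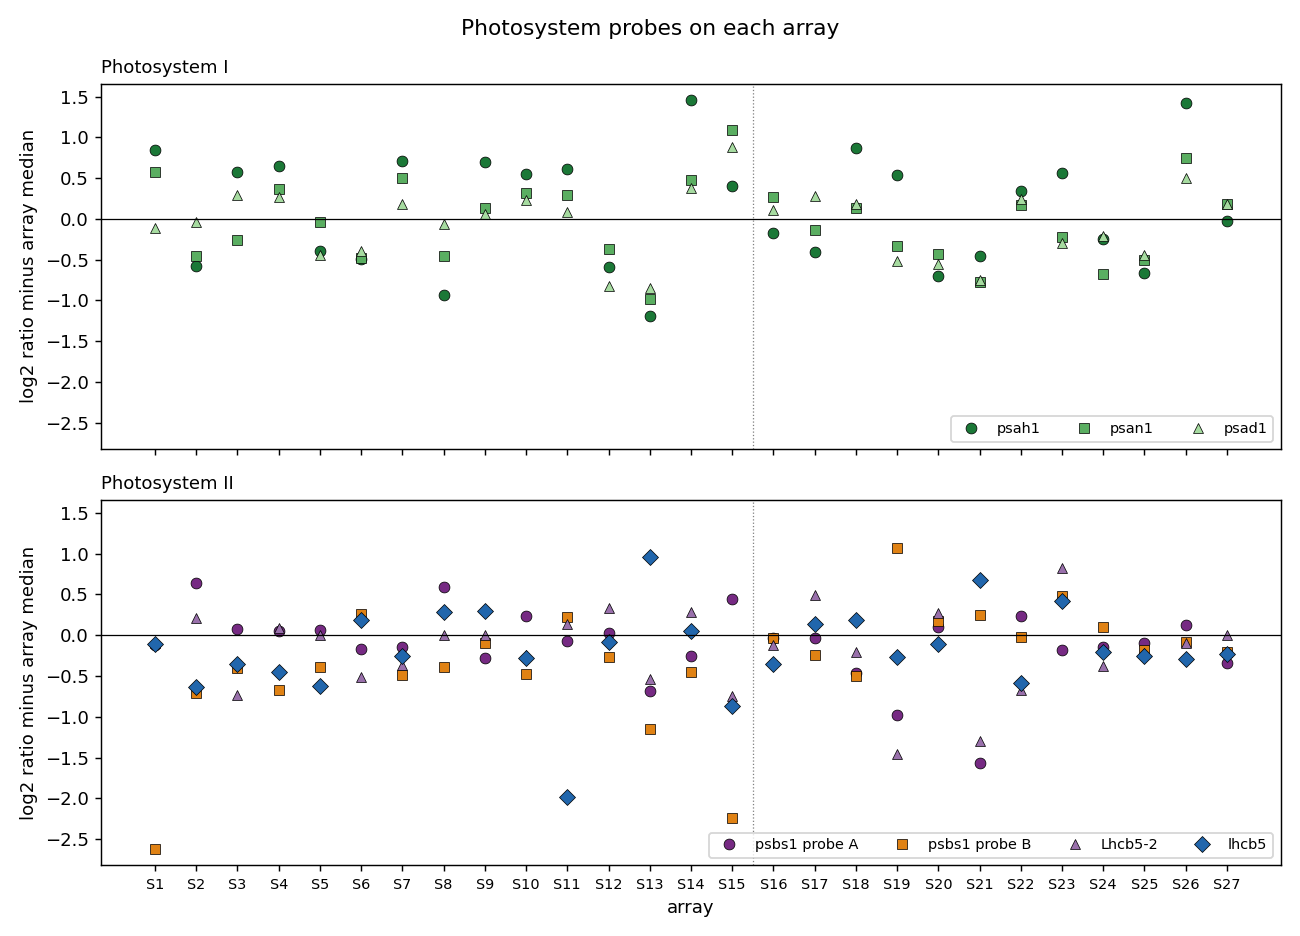
Values of the 3 photosystem I probes (top) and the 4 photosystem II probes (bottom) on each of 27 arrays, as log2 ratios minus the array median; the dotted line divides S1 to S15 from S16 to S27. The photosystem I points move up and down together, all 3 lying low on S13 and high on S14, S15 and S26. The photosystem II points scatter, with single low values of psbs1 probe B on S1 and S15 and of lhcb5 on S11. psbs1 probe A and Lhcb5-2 both lie low on S19 and S21.

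The spread of a probe was taken as its 90th minus its 10th percentile over arrays. It was 1.53 for psah1, 1.10 for psan1, 0.95 for psad1, 0.87 for psbs1 probe A, 1.14 for psbs1 probe B, 1.04 for Lhcb5-2 and 0.98 for lhcb5. A spread of at least 1, which is 2-fold, was reached by 4 of the 7 probes, against 79.2% of all probes and 65.0% of gene-named probes. The members' median spread of 1.04 lay below the median of 1.17 over gene-named probes and below that of 1.54 over all probes. The spread of psah1, the widest over 27 arrays, was wider than that of 71.3% of gene-named probes and of 49.7% of all probes.

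The spread of psah1 was 1.59 on arrays S1 to S15 and 1.49 on arrays S16 to S27. In the same order it was 1.90 and 0.70 for psbs1 probe B, and 0.91 and 1.71 for Lhcb5-2, so these photosystem II probes differed more between the sets. The spread of psbs1 probe B was 0.94 when any of S1, S13 or S15 was left out singly.

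**Figure D2:**
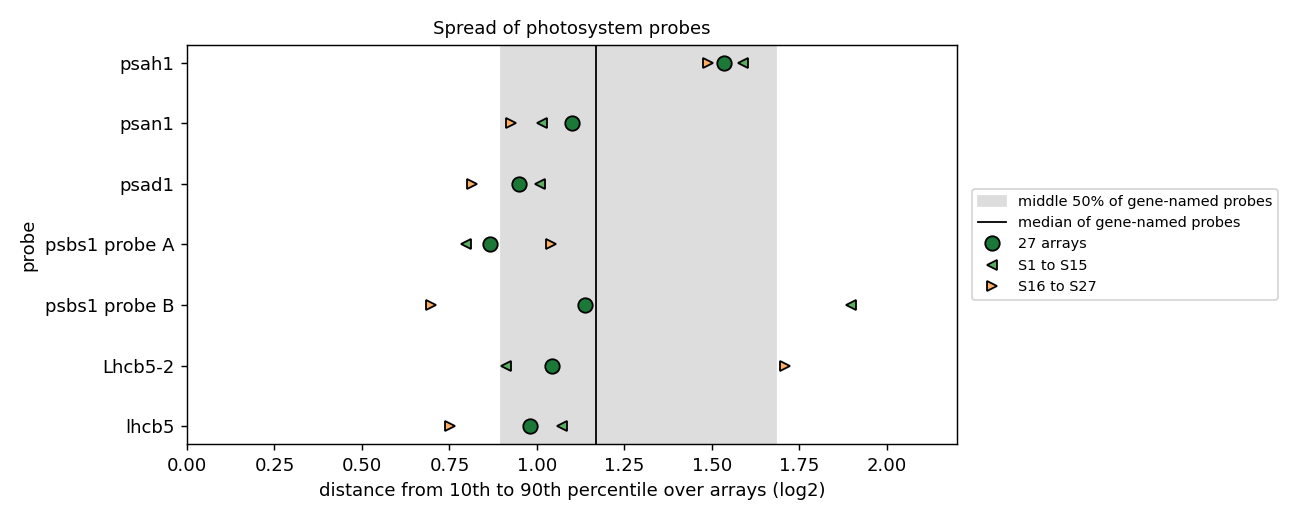
Spread of each photosystem probe, as the 90th minus the 10th percentile on the log2 scale, over 27 arrays (circles) and for S1 to S15 or S16 to S27 alone (triangles). The grey band holds the middle 50% of gene-named probes and the line marks their median of 1.17; psah1 at 1.53 is the widest member over 27 arrays, and psbs1 probe B and Lhcb5-2 differ most between the sets.

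The 3 photosystem I genes varied together from array to array. Pearson's r over 27 arrays was 0.76 between psah1 and psan1 (Spearman's rho 0.78), 0.64 between psah1 and psad1 (rho 0.63) and 0.81 between psan1 and psad1 (rho 0.74). All 3 lay above the array median on 10 arrays and all 3 below it on 10 others. On the remaining 7, S1, S3, S16, S17, S19, S23 and S27, they were on different sides. psah1 was the farthest of the 3 from the array median on 20 arrays, and its SD over arrays was 0.71, against 0.50 for psan1 and 0.43 for psad1.

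These correlations are given as a description without a p-value. The arrays of a loop share RNA, and the labels do not say which arrays form a loop, so the 27 points are not independent. As background, r reached 0.5 in 4.90% of the 1262505 pairs of gene-named probes of different genes, where the median was 0.00933. It reached 0.5 in 3 of the 20 member pairs of different genes, and those were the 3 pairs within photosystem I. Their r values exceeded 99.5%, 98.4% and 99.7% of the background pairs.

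The agreement within photosystem I remained without the most extreme arrays. Without the 2 arrays farthest from the first gene's median, r was 0.71 for psah1 and psan1 (without S13 and S8), 0.61 for psah1 and psad1 (without the same arrays) and 0.72 for psan1 and psad1 (without S15 and S13). Without S15 and S23, the arrays farthest from the photosystem II median, the values were 0.83, 0.70 and 0.76. On S1 to S15 alone the 3 values were 0.80, 0.70 and 0.78, and on S16 to S27 alone they were 0.69, 0.53 and 0.87. Correlation about 0, which stays the same whichever way an array's ratio is turned, gave 0.73, 0.60 and 0.81. When each printing block of 400 spots was centred on its own median, r was 0.74 and 0.65 for the pairs with psan1 but 0.34 for psah1 and psad1. That was below the 0.63 that psad1 then had with psbs1 probe A of photosystem II. The probes of the 3 genes lay in different blocks, as did all 7 member probes.

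**Figure D3:**
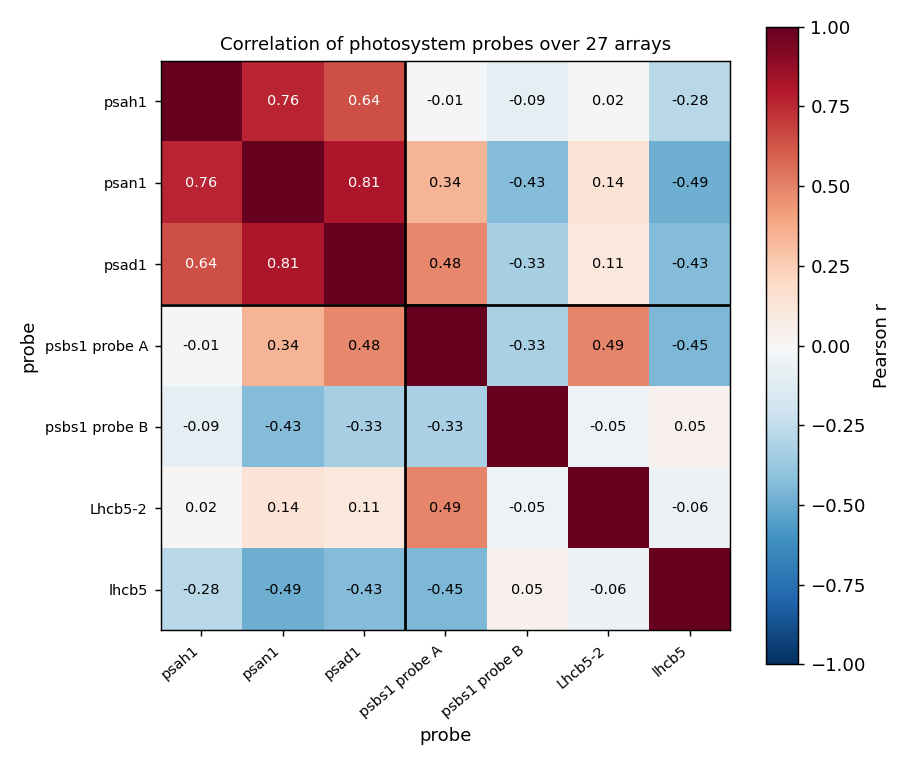
Pearson's r over 27 arrays for each pair of the 7 photosystem probes, in colour and printed; the black lines divide photosystem I from photosystem II. The 3 photosystem I pairs run from 0.64 to 0.81 and the other pairs from -0.49 to 0.49; after block centring, or on S16 to S27 alone, the ranges overlap.

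The photosystem II probes showed no such shared pattern. Over their 5 pairs of different genes r ran from -0.45, for psbs1 probe A and lhcb5, to 0.49, for psbs1 probe A and Lhcb5-2, with a median of -0.052. The value of 0.49 came to -0.010 without S21 and S19, where both probes were low, and was 0.67 on S16 to S27 alone, above the 0.53 of psah1 and psad1 there. Lhcb5-2 and lhcb5 encode copies of the same antenna protein, yet r between their probes was -0.057 (rho 0.11). A cDNA probe can also bind transcripts of a close copy, so the separation of these genes is uncertain. All 4 photosystem II probes lay below the array median together on 4 arrays and above it together on 0.

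The 2 probes of psbs1 did not agree. Their r was -0.33 (rho -0.29), and they lay on opposite sides of the array median on 16 of 27 arrays. Among S1 to S15 r was -0.092, among S16 to S27 it was -0.42, and without S19 it was -0.21. Among 259 genes with at least 2 probes the median r between probes of a gene was 0.078. Low agreement between probes of a gene was thus common. The r of a gene, as a median over its probe pairs, was above 0 for 172 of these genes and below 0 for 87. A negative r such as that of psbs1 was therefore the less frequent case. Because its 2 probes disagreed, the value of psbs1, and of the photosystem II mean that contains it, is uncertain.

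As represented by these probes, photosystem I and photosystem II genes showed no common movement as groups. The mean of the 3 photosystem I genes ran from -1.01 (S13) to 0.89 (S26) over arrays, and the mean of the 3 photosystem II genes from -0.84 (S15) to 0.47 (S23). The SD over arrays was 0.50 for photosystem I and 0.27 for photosystem II. Their r was -0.29 (rho -0.30), -0.36 without S13 and S26, the arrays farthest from the photosystem I median, and -0.21 without S15 and S23, those farthest from the photosystem II median. Both means were above, or both below, the array median on 10 of 27 arrays, or 37.0% (95% exact binomial interval 19.4% to 57.6%, which treats the arrays as independent). Among S1 to S15 r was -0.50, among S16 to S27 it was 0.054, after block centring it was 0.063, and without S15 it was -0.17, so the negative value did not hold in both sets.

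Of the 12 pairs of a photosystem I and a photosystem II probe, 5 had r above 0 and 7 below, with a median of -0.053. The lowest was -0.49, for psan1 and lhcb5, and the highest 0.48, for psad1 and psbs1 probe A. After block centring these were 0.036 and 0.63. Of these 12 pairs and the 5 within photosystem II, 12 of 17 changed sign in at least 1 of the 8 settings of coefficient, scale, blocks and arrays, and 0 of the 3 within photosystem I did. lhcb5 had the lowest r of the photosystem II genes with the photosystem I mean, -0.42 (rho -0.42), -0.45 on S1 to S15 alone and -0.32 on S16 to S27 alone. On S13, where the photosystem I genes were lowest, lhcb5 had its highest value. After block centring the r of lhcb5 with the photosystem I mean was -0.033, and with arrays rescaled to equal interquartile range it was -0.17. Without S13 and S26 it was -0.31, against -0.48 for psbs1 probe B. Over all arrays psbs1 probe B had -0.28 with the photosystem I mean (rho -0.36), -0.27 with rescaled arrays and -0.094 after block centring, and was on the opposite side of the array median on 18 arrays, against 16 for lhcb5. Lhcb5-2 had r of 0.084 with the photosystem I mean.

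**Figure D4:**
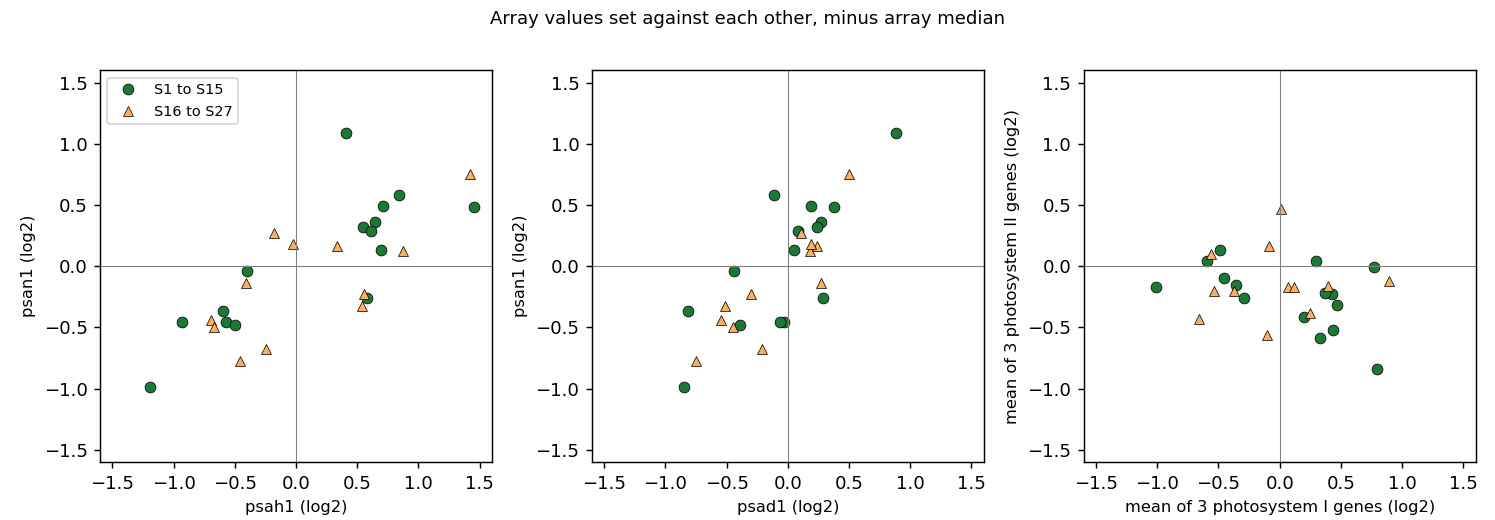
Values on each array for psah1 and psan1 (left), psad1 and psan1 (middle) and the means of the photosystem I and photosystem II genes (right), as log2 ratios minus the array median, with S1 to S15 as circles and S16 to S27 as triangles. The points of the left and middle panels follow a rising line (r 0.76 and 0.81), and those of the right panel do not (r -0.29).

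Some features of whole arrays moved with the photosystem I mean. Its r was 0.40 with the array's median before centring (rho 0.40) and -0.23 with the array's interquartile range (rho -0.27). With the shift of gene-named probes against all probes it was 0.40 (rho 0.11). With the second principal component of the arrays, on which S27 had by far the largest weight, at 0.80, it was -0.31 (rho -0.61). Among photosystem II genes, psbs1 had r of -0.56 with the array's median before centring (rho -0.53). That median is subtracted from each value, so part of a negative r with it is built in. With no centring at all, the median r of the 3 photosystem I pairs was 0.79, and with rescaled arrays it was 0.73. The part of the signal strength of the spots in the shared pattern was not tested, because no intensities were used.

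Other photosynthesis genes were set against the photosystem I mean through a list of name patterns, which gave 15 probes of 12 names. Of these 8 had r above 0, with a median of 0.047, against 893 of 1604 gene-named probes outside photosystem I and a median of 0.045. It held 4 probes matched by name only, those of ohp1, ohp2 and por1, all with r below 0. Of the other 11 probes 8 had r above 0, with a median of 0.22, a division made with the values known. A probe of LOC542212 (rbcS), the small subunit of Rubisco, stood highest in it, with r of 0.73 (rho 0.79), 0.85 within S1 to S15, 0.58 within S16 to S27 and 0.77 after block centring. The other rbcS probe had 0.36. Over 27 arrays, enzymes of the C4 cycle had smaller values than the first rbcS probe. PDK1 (pyruvate phosphate dikinase) had 0.35, the probes of ME1 (NADP-malic enzyme, also me3) 0.33 and 0.047, and mdh6 (NADP-malate dehydrogenase) 0.25. The PDK1 value was close to that of the other rbcS probe. PDK1 had 0.091 within S1 to S15 but 0.70 within S16 to S27, above the 0.58 of the first rbcS probe there. Rubisco activase, Rca, had -0.042. After block centring Rca had 0.31, PDK1 0.26, the ME1 probes 0.33 and -0.026, and mdh6 0.26. The rho of mdh6 was 0.0061, and its r within S16 to S27 was 0.061.

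The remaining probes were Cab-m7, of the light-harvesting chlorophyll proteins, at -0.33, Hcf106C and hcf106, of thylakoid protein import, at 0.21 and -0.065, and rnc1, a chloroplast splicing factor, at 0.22. The patterns also caught por1, which carries the synonym porin1 and had -0.16, and the ohp genes. In maize the name ohp1 is used for relatives of the opaque2 transcription factor, so nothing on photosynthesis is read from them. ohp1 had -0.096 and -0.38 and ohp2 had -0.19.

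By the rule for likeness, gene-named probes were ranked by r with the mean of the 6 genes over 27 arrays. The highest was the rbcS probe named above, at 0.73. It was followed by 3 probes of LOC100125656, which has no name in the tables used here, at 0.73, 0.71 and 0.68, and by cys2 at 0.67. Single probes of the tonoplast aquaporin tip1, of pep7, a PEP carboxylase gene, of grp1 and of LOC542441 had 0.66, and 1 of the superoxide dismutase Sod4A had 0.65. Other probes of these genes were lower, with medians of 0.045 over 6 for tip1, 0.20 over 6 for pep7, 0.17 over 25 for grp1, 0.51 over 5 for LOC542441, 0.29 over 16 for Sod4A and 0.25 over 3 for cys2. The lowest were probes of the beta-tubulin TUB2 at -0.68, of smh4 at -0.59 and of HB133 (rld1), a leaf polarity transcription factor, at -0.59. With the correlation about 0, 8 of the 10 highest and 2 of the 3 lowest probes were the same.

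Because the mean of 6 genes mixes a group that moved together with probes that did not, the ranking was repeated with the photosystem I mean, which was decided with the values already known. The probes of LOC100125656 then led with 0.87, 0.86 and 0.85, and the gene's other probe had 0.51. They had the sign of the photosystem I mean on 24 of 27 arrays each, and their values after block centring were 0.89, 0.90 and 0.86. Probes of LOC542441 had 0.82 and 0.79, and a probe of fdx2, a ferredoxin, had 0.79 (0.83 within S1 to S15, 0.75 within S16 to S27). Ferredoxin is the electron acceptor of photosystem I. The other fdx2 probe had -0.44, so the gene's pattern is uncertain. The list of name patterns did not cover the name fdx2. Single probes of Sod4A at 0.76, tip1 at 0.75 and the glutathione transferase gst1 at 0.73 and the rbcS probe completed the 10. The genes' other probes had medians of 0.46 (lowest -0.41) for Sod4A, 0.099 (lowest -0.47) for tip1 and 0.47 for gst1. Probes 3551 and 3532 of LOC100125656 and the listed probes of fdx2 and tip1 lay in the same printing block, block 9. The Sod4A probe shared block 10 with psan1. After block centring r was 0.80 for fdx2, 0.65 for tip1 and 0.71 for Sod4A. Probes of TUB2 at -0.74, the beta-tubulin tub5 at -0.68 and lls1 at -0.68, known from chlorophyll breakdown, were lowest, and the other 8 of tub5 ran from -0.59 to 0.33. With the correlation about 0, 9 of the 10 highest and all 3 lowest probes were the same.

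The photosystem I genes were near the top of the table for each other, though not at its head. Set against the mean of the other two, psan1 ranked 4 of 1605 gene-named probes (r 0.85), psah1 ranked 6 (r 0.74) and psad1 ranked 6 (r 0.76). With the correlation about 0, which does not depend on the direction of an array's ratio, the ranks were 3 for psan1, 14 for psah1 and 7 for psad1. By Pearson's r among all 18301 probes outside the pair, in the order psan1, psah1 and psad1, the ranks were 7, 29 and 56. After block centring psan1 again ranked 4 of 1605 (r 0.85), while psah1 ranked 71 (r 0.58) and psad1 87 (r 0.49). The rank of psan1 was thus the same without block offsets, and those of psah1 and psad1 were lower.

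**Figure D5:**
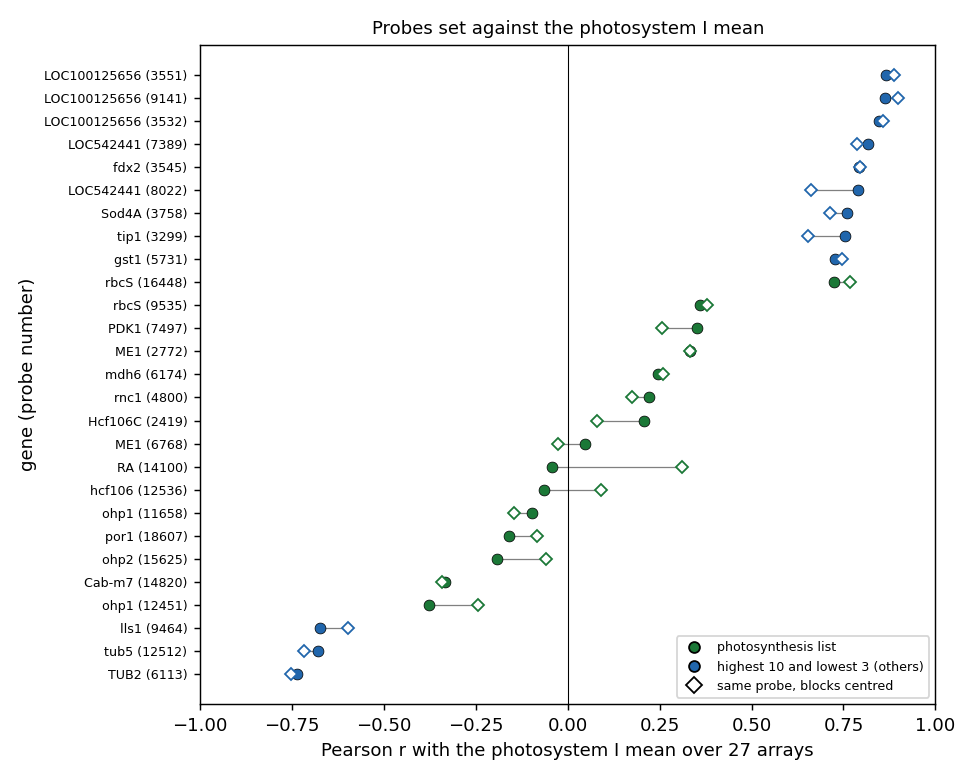
Pearson's r with the photosystem I mean over 27 arrays for the probes of the photosynthesis list (green) and for the other probes among the 10 highest and 3 lowest (blue); diamonds give the same probe after block centring, and probe numbers of the platform stand in parentheses. Probes of LOC100125656 lead at 0.85 to 0.87, 1 rbcS probe stands at 0.73, and the rest of the photosynthesis list lies between -0.33 and 0.36, apart from a probe of ohp1 at -0.38, which matched by name only.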

How the data were processed

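The authors deposited 1 log ratio per spot and array. How they scanned, corrected and normalized the arrays is not given in the sources used here. The deposited values were read as natural log ratios from the values themselves. Among values found 3 or more times on an array, 154 pairs differed by 2 ln k for a k between 2 and 15 (tolerance 2e-05), against 7.33 pairs when that distance was shifted. For base 2 there were 4 against 4 pairs. Such pairs occurred on 19 of 27 arrays, and on 9 for at least 10 values of k. On those 9 most midpoints shifted gradually with k, apart from stray pairs, as would swapped small signals under an offset that follows intensity. The reading is an inference, extended to all arrays. Division by ln 2 put them on the log2 scale. Of 19200 spots 897 were empty, and the other 18303 had values throughout. The median of each array was subtracted from its values. Names came from the platform's table and, for all 6 members, RefSeq's gene table (Zm-B73-REFERENCE-NAM-5.0), used for names alone. A gene was the mean of its probes. Runs of 400 spots were taken as 48 printing blocks, because 83.3% of empty spots recurred at that distance. Spreads, Pearson and Spearman coefficients and counts were computed with numpy 2.4.6, scipy 1.17.1 and pandas 2.3.3, and the code was tested on simulated data.

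No group could be formed, so no test between genotypes was made. Members, lists and alternatives were chosen with earlier results of these data known. All members were named; beside them stand the 10 highest and 3 lowest probes by r and a list of photosynthesis names. The number of arrays limits the precision of each value.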

Additional observations from a re-analysis of the deposited data

How the results depend on the processing

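No paired analysis was possible because the arrays have no groups. Alternatives changed the measure of spread, array scale, centring, blocks, repeated values, coefficient, combination of probes or arrays used. Correlations and spreads were taken as moved when they differed by more than the error from leaving out each array in turn. A correlation larger than that error was called reversed when its sign changed. The r between photosystem I and II means was reversed with block centring and on S16 to S27 alone. The count of probes was taken as moved beyond a factor of 1.5, and the share of arrays beyond its 95% interval. Of the members, 4 reached a spread of 1, but 1 did so with the interquartile range, a narrower measure, and 1 reached the higher threshold of 1.5. The count was 6 with rescaled arrays, 5 without centring, with gene-named centring and on S1 to S15 alone, 3 with block centring and on S16 to S27 alone, and 3 to 4 when single arrays were left out. The median spread of 1.04 was 0.56 with the interquartile range and 0.94 to 1.05 when single arrays were left out. The r between photosystem I and II means was -0.11 without centring, 0.063 with block centring, -0.50 on S1 to S15 alone and 0.054 on S16 to S27 alone, and -0.36 (without S21) to -0.17 (without S15) when single arrays were left out; the cause was not tested. The median r within photosystem I was 0.65 with block centring, 0.69 on S16 to S27 alone and 0.72 to 0.78 when single arrays were left out. The median r over all pairs stayed between -0.10 and 0.080, and the share of arrays on the same side between 33.3% and 48.1%. The 7 spreads, the 3 photosystem I pairs, the psbs1 probe pair and lhcb5 with the photosystem I mean were followed under the same alternatives. Single left-out arrays aside, their values stayed within the leave-one-out error in 85 cases and moved in 26. None of these correlations changed sign, and a spread cannot. The 85 cases include the median of a gene's probes, which equals their mean here because no member gene has more than 2 probes. Of the 17 other pairs, 12 changed sign in at least 1 setting. Signal over background was not used, so how far dim spots limit these values was not measured.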
